A study of Danio rerio with 33 samples.

Results

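The collagen genes described here are the genes of the deposited count table whose zebrafish symbol has the form of a collagen alpha chain (col, a type number, the letter a and a chain number), without col7a1 and the col17a1 genes of the epidermal attachments. The rule found 26 genes among 25432. It used no measured value, although the members were chosen with earlier results of these data known. All 26 passed the filter on low counts. They comprise 12 fibrillar collagen genes, 5 genes of collagens that associate with fibrils (FACITs), 3 genes of the short chain network collagens, 1 basement membrane gene, 2 multiplexin genes and 3 genes of collagen XXVIII. Another 26 genes of collagen chains carry a symbol written in capitals or taken only from a table of gene names, and they fall outside the rule.

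The study measured polyadenylated RNA in pools of 10 wild-type zebrafish embryos that were exposed for 24 h, from 96 to 120 h after fertilisation, to organic extracts of airborne particle filters. All 33 libraries are from such pools: 6 from vehicle embryos, 3 from embryos given the extract of a blank (mock) filter, 9 from harbour filters, 9 from road filters, 3 from airport filters and 3 from a subway filter. The filters were extracted with a mixture of dichloromethane and methanol, and the extracts were held in methanol. Harbour filters 32, 36 and 38 gave 1, 4 and 4 pools, and road filters 26, 28 and 30 gave 4, 4 and 1 pools, all from the cold season. Airport filters 44 and 48 (cold season) and 54 (warm season) gave 1 pool each, so that no single airport filter was replicated. The subway pools all came from filter 80. The library names fall into 3 series, which begin with 35, 37 and 38, and the labels do not say whether the exposures were made in the same batches. Vehicle pools exist in series 35 (3) and 37 (3), all airport and mock pools belong to series 35, and all subway pools belong to series 38, which has no vehicle pool. The titles also hold a number that is not the same in the 3 series and that the labels leave unexplained, so an equal dose in all series is an assumption. The labels call the pools biological replicates but do not say whether they came from separate clutches, and p-values measure only the spread between these pools.

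Collagens are the main structural proteins of the extracellular matrix, built of 3 alpha chains wound into a triple helix. Type I collagen is the main fibril of bone, tendon and skin, and types II, IX and XI form the thin fibrils of cartilage, in which XI lies inside the fibril and IX on its surface. Type V collagen is a minor partner of type I fibrils, and type X is the collagen of hypertrophic cartilage and, in teleosts, also of bone-forming cells. In zebrafish the jaw and gill arch cartilages and the first dermal bones are growing in the days after hatching, when these embryos were exposed. Many of these chains are encoded by duplicate genes, marked a and b.

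Depth was between 18448718 and 51854033 counts per library, and the fewest counts of any of the 26 genes in a library were 23, for col28a1b. The deposited quality table places series 35 in another sequencing round than series 37 and 38, and the uniquely mapped share was 71.66 to 77.08% in series 35, 78.88 to 79.5% in series 37 and 78.74 to 79.31% in series 38. Vehicle 3 and mock filter 2 and 3 stood apart in the interferon-induced gene mxc, with 80.6, 58.3 and 63.4 CPM (counts scaled to a common library size), where the other libraries had at most 8.04. Levels below are CPM after TMM scaling and are compared only within a gene, since no gene length was used. Because the libraries are of whole embryos, fewer cells of a type and less RNA per cell cannot be told apart.

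The 26 genes together took up less of the RNA in airport embryos than in any other library. Their summed share of all counts was 0.428% with filter 44, 0.474% with filter 48 and 0.561% with filter 54. The vehicle pools of the same series held 0.894, 1.07 and 0.991%, and the mock filter pools 1.01, 0.891 and 0.918%. All 3 airport values lie below all 9 harbour, 9 road and 3 subway values, the lowest of which was 0.713%. The airport mean of 0.487 ± 0.068% (SD, n = 3) was 0.495 times the vehicle mean of series 35, 0.985 ± 0.088% (n = 3), with a two-sided exact permutation p of 0.1, the smallest that 3 against 3 pools allow. Against all 6 vehicle pools the ratio was 0.432 (exact permutation p = 0.0238, the smallest possible for 3 against 6). Vehicle pools themselves differed by series, at 1.27 ± 0.097% in series 37, which is 1.29 times the mean of series 35 (exact permutation p = 0.1, 3 against 3).

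**Figure D1:**
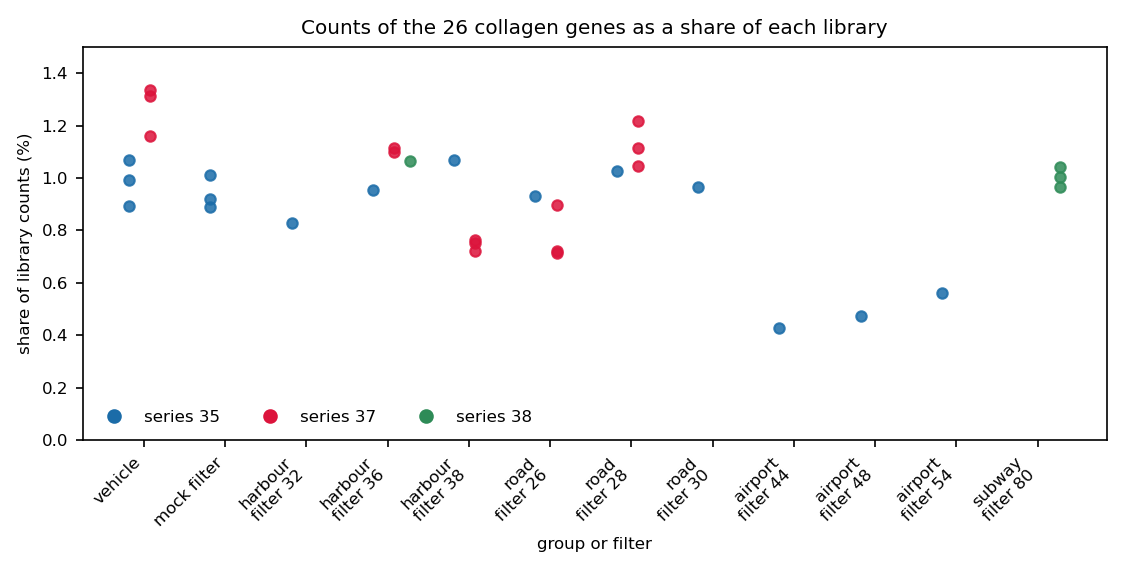
Summed share of all counts (percent) taken by the 26 collagen genes, 1 point per library, by group and filter, coloured by library series (35 blue, 37 red, 38 green). The 3 airport libraries sit between 0.428 and 0.561%, below every other library, and the series 37 libraries of filters 26 and 38 sit below the vehicle libraries of that series. So do, by less, the series 37 libraries of filter 36 (1.113 and 1.101%) and road 6 and road 7 of filter 28 (1.115 and 1.046%). The lowest vehicle library of that series had 1.159%.

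In airport embryos nearly all of the collagen genes fell. Against the 6 vehicle pools, in a fit over all libraries with the library series as a covariate, 25 of the 26 genes were lower and 1, col28a1b, was higher at an adjusted p under 0.05 in edgeR's quasi-likelihood test. Of the 22124 genes tested, 17.2% were lower and 17.4% higher (34.6% in either direction), so the share of collagens that were lower was well above the background. The median log2 change over the 26 genes was -1.16, where that over all genes tested was -0.03. All 12 fibrillar genes fell, with a median of -1.21, as did all 5 FACIT genes (-1.25), all 3 short chain genes (-0.84), the basement membrane gene and both multiplexins. Within series 35 alone, from the fit with group and series crossed, 23 genes were lower and 1 higher, where 17% of all genes tested were lower and 17.4% higher, and the median was -1.02. The fibrillar, FACIT and short chain medians were then -1.04, -1.12 and -0.57. The fit over all libraries takes the difference between series to be equal in every group. For filters 26 and 38 it was called unequal to that of vehicle in 11 and 19 of the genes, as given below. The changes per gene that follow come from the fit over all libraries unless stated. Without the 3 libraries high in mxc, 24 of the 26 calls were kept.

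**Figure D2:**
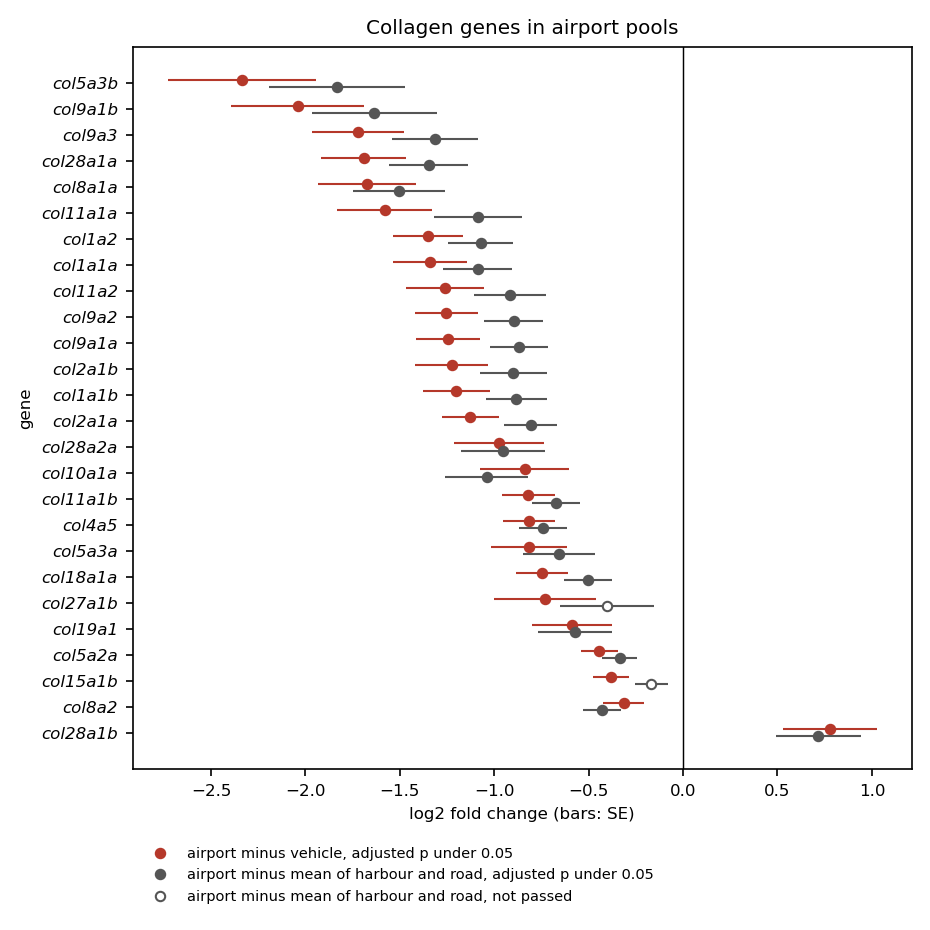
Log2 fold change ± SE of each collagen gene in airport embryos against vehicle (red) and against the mean of harbour and road embryos (grey), with an open symbol where the adjusted p was 0.05 or more. Every gene except col28a1b lies to the left of 0 in both contrasts, and col27a1b and col15a1b did not pass in the second.

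The type I genes were the most abundant of the group and fell together. col1a1a (ENSDARG00000012405), which encodes one chain of the bone and skin fibril, had 1076, 1226 and 1511 CPM in the airport pools of filters 44, 48 and 54. In vehicle pools it had 2456 to 3556 CPM with a median of 3259, and in mock filter pools 2684, 2294 and 2356. The airport pools were the lowest 3 of all 33, with no overlap with any other group, and the gene fell by 1.34 ± 0.20 on the log2 scale (SE, edgeR adjusted p = 3.75e-05). Its duplicate col1a1b (ENSDARG00000035809) had 642, 751 and 858 CPM in airport pools, against 1355 to 1953 in vehicle pools with a median of 1798. It too was below every other library, and fell by 1.20 ± 0.18 (edgeR adjusted p = 3.72e-05). col1a2 (ENSDARG00000020007), the gene of the other chain, had 440, 485 and 543 CPM in airport pools, against 955 to 1457 in vehicle pools with a median of 1302. Again the airport pools were apart from all others, and the change was -1.35 ± 0.19 (edgeR adjusted p = 2.23e-05). The type I genes therefore all ended at 0.392 to 0.435 times the vehicle level fitted over both series. Against the mean of the vehicle pools of its own sequencing round, col1a1a fell by less. Its log2 CPM deviated by -1.36, -1.18 and -0.87 in the pools of filters 44, 48 and 54.

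Among the cartilage fibril genes, the type II genes fell about as far as type I, and col11a1a further. col2a1a (ENSDARG00000069093), the chief collagen of cartilage and of the notochord sheath, had 569, 662 and 806 CPM in airport pools and 1201 to 1593 in vehicle pools, with a median of 1495. col2a1b (ENSDARG00000011407) had 167, 184 and 225 CPM in airport pools, against 359 to 519 in vehicle pools with a median of 455. Both genes were lower in the airport pools than in any other library, with changes of -1.13 ± 0.15 and -1.22 ± 0.19 (edgeR adjusted p = 1.92e-05 and 6.82e-05). col11a1a (ENSDARG00000026165), a chain of the fibril core, had 199, 239 and 334 CPM in airport pools, against 636 to 842 in vehicle pools with a median of 728. Airport and vehicle did not overlap, although the filter 54 pool lay above the lowest harbour pool, at 327 CPM. The change was -1.58 ± 0.25 (edgeR adjusted p = 7.44e-05). The duplicate col11a1b, at 129 to 166 CPM in airport pools and 207 to 282 in vehicle pools, fell by 0.82 ± 0.14. The other type XI chain, col11a2 (ENSDARG00000012422), had 90.5, 98.0 and 163 CPM in airport pools and 243 to 314 in vehicle pools, with a median of 265. It fell by 1.26 ± 0.21 (edgeR adjusted p = 9.87e-05), with airport and vehicle apart.

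All 4 type IX genes, whose product coats the cartilage fibril, were lower in the airport pools than in any other library. col9a1b (ENSDARG00000031483) had 18.1, 23.7 and 40.6 CPM in airport pools, 102 to 108 in the vehicle pools of series 35 and 167 to 184 in those of series 37. Its change was -2.04 ± 0.35 (edgeR adjusted p = 0.000145), the largest after col5a3b in the fit over all libraries. Filters 32 and 36 of the harbour also gave low pools in series 35, at 49.2 and 45.6 CPM. Its duplicate col9a1a (ENSDARG00000073699) had 64.5, 68.4 and 70.3 CPM in airport pools and 136 to 178 in vehicle pools, with a median of 154, and fell by 1.25 ± 0.17 (edgeR adjusted p = 1.98e-05). col9a2 (ENSDARG00000024492), with 114, 141 and 152 CPM in airport pools and 286 to 370 in vehicle pools (median 317), also changed by -1.25 ± 0.17 (edgeR adjusted p = 1.92e-05). col9a3 (ENSDARG00000037845) had 62.5, 66.4 and 91.2 CPM in airport pools, against 193 to 294 in vehicle pools with a median of 247. It fell by 1.72 ± 0.24 (edgeR adjusted p = 2.68e-05), so that the chains of one protein did not fall by one amount.

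col5a3b (ENSDARG00000101816), a type V chain, had the largest change of the 26 genes in the fit over all libraries. It had 29.0, 31.4 and 27.9 CPM in the airport pools. The vehicle pools of series 35 had 103, 125 and 125 CPM and those of series 37 had 236, 222 and 173. No other library was below 61.4 CPM, and the change was -2.34 ± 0.39 (edgeR adjusted p = 0.000116). That is 0.198 times the vehicle level fitted over both series. Within series 35 alone, the largest fall was that of a FACIT gene (-1.997), and the largest of a fibrillar gene was -1.982. The other type V genes fell less. col5a2a (ENSDARG00000031678), at 195, 213 and 252 CPM in airport pools and 261 to 338 in vehicle pools (median 297), changed by -0.44 ± 0.10 (edgeR adjusted p = 0.00118), without overlap between these groups. col5a3a, the low duplicate at 2.35 to 3.23 CPM in airport pools and 3.79 to 6.12 in vehicle pools, changed by -0.82 ± 0.20.

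The gene of hypertrophic cartilage and bone-forming cells, col10a1a (ENSDARG00000054753), was also lower. It had 97.7, 110 and 85.9 CPM in airport pools and 108 to 217 in vehicle pools, with a median of 159. Here the filter 48 pool overlapped the lowest vehicle pool, and the change was -0.84 ± 0.23 (edgeR adjusted p = 0.00669). It did not pass in a fit of airport and vehicle alone (-0.57, edgeR adjusted p = 0.0509) or in series 35 alone without vehicle 3 (-0.54, adjusted p = 0.104). The other short chain collagens differed from each other. col8a1a (ENSDARG00000077403) had 3.75, 4.59 and 3.33 CPM in airport pools and 9.49 to 16.98 in vehicle pools, with a median of 14.2. It was below every other library and changed by -1.67 ± 0.26 (edgeR adjusted p = 5.97e-05). col8a2 changed by -0.31 ± 0.11 (edgeR adjusted p = 0.0241), at 13.1 to 16.7 CPM in airport pools and 17.7 to 22.6 in vehicle pools.

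Outside cartilage and bone, col4a5 (ENSDARG00000052063), a chain of the basement membrane network, had 197, 211 and 189 CPM in airport pools and 291 to 373 in vehicle pools, with a median of 351. All 3 airport pools were below every other library, and the gene fell by 0.82 ± 0.14 (edgeR adjusted p = 0.000127). The multiplexins, collagens with interrupted helices that lie at basement membranes, fell by 0.75 ± 0.14 (col18a1a) and 0.38 ± 0.10 (col15a1b). The low fibrillar gene col27a1b changed by -0.73 ± 0.27 (edgeR adjusted p = 0.0356) and the FACIT gene col19a1 (ENSDARG00000096073) by -0.59 ± 0.21 (edgeR adjusted p = 0.0318), both with vehicle levels between 2.69 and 6.42 CPM. The call on col27a1b ended in 6 of the 9 fits that left out 1 airport or vehicle pool, and that on col19a1 in 3 of them, those without vehicle 3, vehicle 5 or airport 3. The call on col8a2 was lost without airport 1 or without airport 2. Over all 23 alternative fits, the calls on col27a1b, col19a1 and col8a2 were lost in 13, 9 and 9.

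The 3 collagen XXVIII genes, whose chains carry von Willebrand factor domains, did not move in one direction. col28a1a (ENSDARG00000077084) had 6.75, 6.52 and 8.06 CPM in airport pools and 20.6 to 23.7 in vehicle pools, with a median of 21.5. It was below every other library and fell by 1.69 ± 0.22 (edgeR adjusted p = 1.64e-05). col28a2a fell by 0.97 ± 0.24, from 35.9 to 51.9 CPM in vehicle pools to 16.4 to 27.7 in airport pools. col28a1b (ENSDARG00000087087) had 3.91, 3.47 and 2.20 CPM in airport pools and 1.07 to 2.88 in vehicle pools, with a median of 2.13. The pool of filter 54 lay within the vehicle range, and the gene rose by 0.78 ± 0.25 (edgeR adjusted p = 0.0154), a call that was lost without airport 1 or without airport 2. It was lost in 9 of all 23 alternative fits, some of which repeat each other, and 0 members were higher against the mock filter.

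The airport filters were similar in this respect, although each was 1 pool and was fitted on the assumption that it varies like the other filters. Filter 44 gave 21 lower genes and 1 higher with a median of -1.39, where 10.6% of all genes tested were lower and 13.9% higher. Filter 48 gave 21 lower genes with a median of -1.16, against 7.4% of all genes. Filter 54, from the warm season, gave 19 lower genes with a median of -1.0, against 10.8% of all genes. With the mock filter as the control, 22 genes were lower in airport embryos (7.96% of all genes tested), with a median of -0.79.

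The fall in airport embryos was also larger than the mean fall in harbour and road embryos, a mean that mixes filters and series. Set against filters 26 and 38 in series 37 alone, as given below, it was called larger in 2 and 0 collagen genes. Of all genes, 0.221% were lower in the first and 0.945% called in the second. Against the mean of harbour and road embryos, 23 collagen genes were lower and 1, col28a1b, higher in edgeR, where 11.7% of all genes tested were lower and 10.9% higher. The median was -0.89, and over all genes -0.02. The differences were -1.83 ± 0.36 for col5a3b, -1.63 ± 0.33 for col9a1b, -1.09 ± 0.18 for col1a1a and -1.04 ± 0.22 for col10a1a. For col27a1b (-0.40, edgeR adjusted p = 0.248) and col15a1b (-0.17, edgeR adjusted p = 0.165) the difference did not pass the threshold. Of the calls, that on col28a1b was lost without airport 1 or airport 2, those on col5a2a and col18a1a without airport 1, that on col5a3a without airport 2, and that on col19a1 without any 1 of 7 pools (harbour 2 or 4, road 1, 5 or 9, airport 2 or 3). The share of counts was 0.507 times that of the 6 harbour and road pools of series 35 (exact permutation p = 0.0238, the smallest possible for 3 against 6).

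With harbour, road, subway and mock filter extracts as groups, none of the 26 genes passed the threshold in edgeR. The medians were -0.31 for harbour, -0.23 for road, -0.33 for subway and -0.25 for mock filter, and 15, 10, 5 and 5 genes had an unadjusted p under 0.05. Of the 22124 genes tested, 3995, 3404, 4406 and 3022 had such a p, so that the subway count was near the background. By adjusted p, 1.25, 0.411, 0.416 and 0.0136% of all genes were called in these comparisons. DESeq2 called 1 gene for harbour, 1 for road and 2 for subway. The gene closest to the threshold was col15a1b for harbour (-0.26, edgeR adjusted p = 0.0534), col9a1a for road (-0.41, adjusted p = 0.101) and col2a1a for mock filter (-0.36, adjusted p = 0.289). For subway these were col15a1b (-0.64 ± 0.16, edgeR adjusted p = 0.0569) and col8a2 (0.73 ± 0.19, adjusted p = 0.0593), and the subway values rest on the single harbour pool of series 38 that ties it to the other series. Without filter 36 the harbour count was 15, where 11.8% of all genes were called, and without filter 28 the road count was 10, where 8.25% were. Harbour gave 1 call without vehicle 3, harbour 4 or harbour 6 and 2 without harbour 3, and subway gave 1 without vehicle 2 and 2 without vehicle 3. Against the mock filter, 0 genes were called for harbour, road and subway, where 0.271, 0.0588 and 0% of all genes were, and the medians lay at -0.01 or closer to 0. Between harbour and road, 0 of the 26 genes and 0% of all genes were called by edgeR, DESeq2 called 0 of the 26, and the median was -0.02. An unadjusted p under 0.05 was found in 0 of the 26 and in 863 of the 22124 genes tested.

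**Figure D3:**
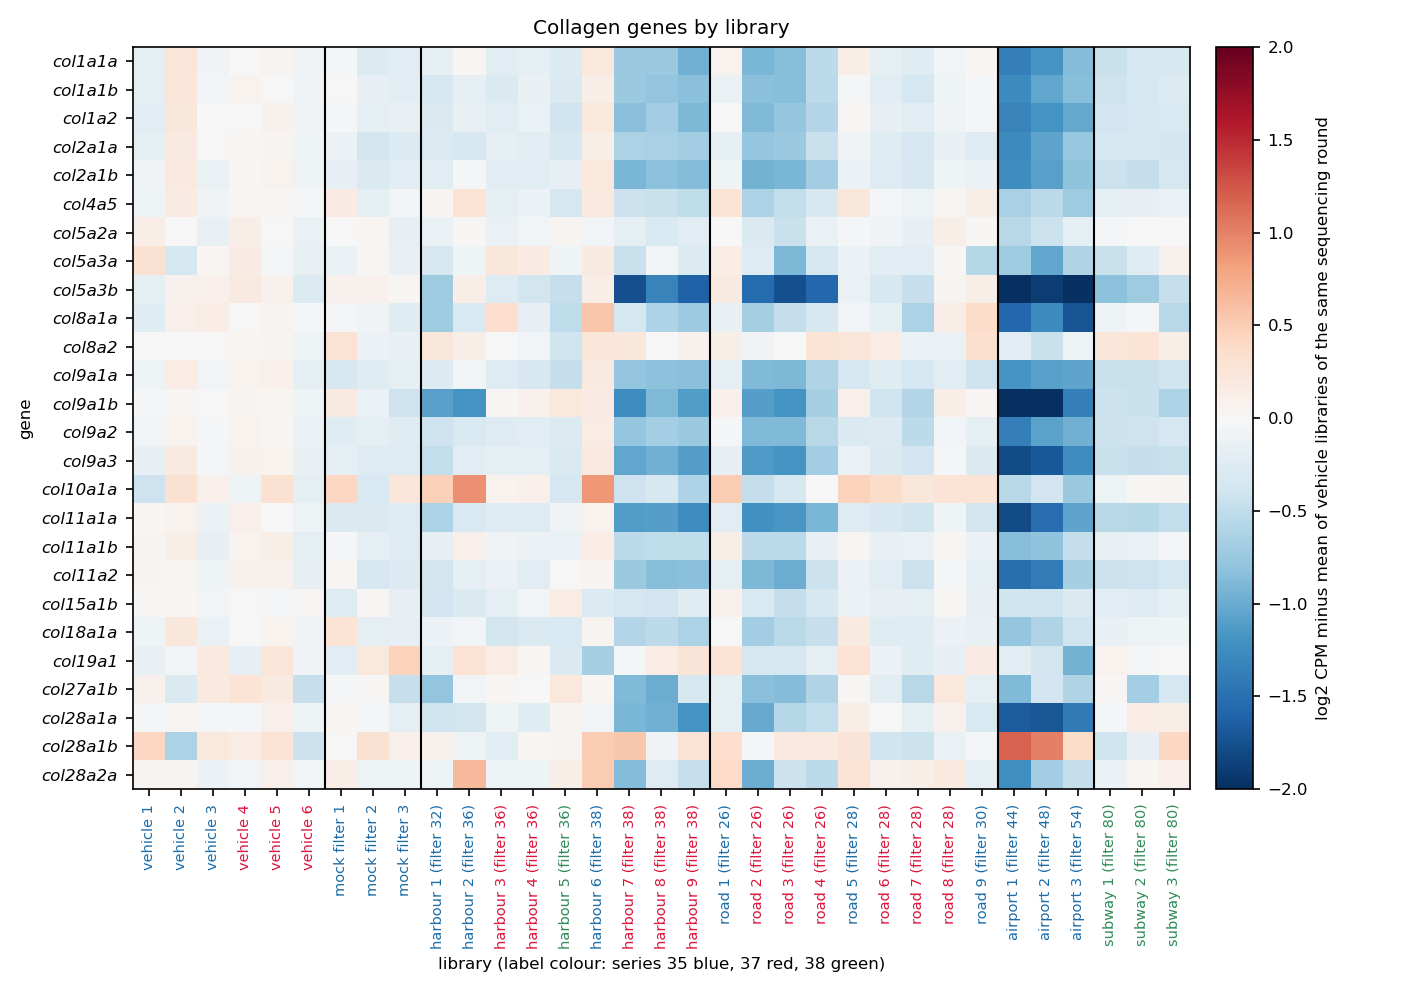
Log2 CPM of each collagen gene in each library minus the mean of the vehicle libraries of the same sequencing round, on a colour scale from -2 (lower) to 2 (higher). The airport libraries are low in nearly every gene, and the series 37 libraries of filters 26 and 38 are low in most, with medians over the genes of -0.79 to -1.24 and -0.47 to -0.84.

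Behind the group values the filters differed. Road filter 26 gave 14 lower genes against vehicle with a median of -0.44, where 6.92% of all genes tested were lower and 10.1% higher (17% in either direction). Harbour filter 38 gave 14 lower genes with a median of -0.41, where 3.68% were lower and 6.73% higher (10.4% in either direction). Filters 28 and 36 gave 0 called genes with medians of -0.09 and -0.10, where 0.0883 and 0.0706% of all genes were called in edgeR, and 1 gene in each had an unadjusted p under 0.05 (DESeq2 called 0 for both). Of the 22653 genes tested, 1268 and 1398 had such a p. Filters 30 and 32, with 1 pool each, also gave 0, with medians of -0.28 and -0.42, where 0.0574 and 4.68% were called. For filters 30 and 32 the change was negative in 23 and 24 of the 26 genes. The median of filter 32 was near that of filter 38. Its pool had a collagen share of 0.827%, below the vehicle pools of series 35 (0.894 to 1.07%). The filter 30 pool, at 0.964%, lay among them. With 1 pool, the count of 0 cannot show that filter 32 left these genes unchanged. The count for filter 26 was 9 without vehicle 5 and 8 without road 2 or road 3. The count for filter 38 was 5 without vehicle 4, 2 without vehicle 5, harbour 7 or harbour 8, and 3 without harbour 9. Tested directly, filter 26 differed from filter 28 in 3 genes, all lower: col5a3b (-0.90 ± 0.26), col11a1a (-0.58 ± 0.17) and col28a1a (-0.54 ± 0.15), with edgeR adjusted p of 0.0398, 0.0405 and 0.0269, where 2.34% of all genes were lower and 7.82% called in either direction. That count was 13 without road 1 and 8 without road 5, the series 35 pools of the filters, and 0 without any of road 2, 3, 4, 6, 7 or 8. Filters 36 and 38 differed in 0 of the 26 genes in edgeR (2.39% of all genes called). An unadjusted p under 0.05 was found in 13 of the 26 and in 4622 of the 22653 genes tested. The count of called collagens was 17 without harbour 6, the series 35 pool of filter 38, and DESeq2 called 1.

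For filters 26 and 38 the fall was seen in the pools of series 37 and not in the single pool of series 35. With filter 38, col1a1a had 2026, 2030 and 1754 CPM in series 37, where its vehicle pools had 3441, 3556 and 3231. In series 35 it had 3220 CPM, within the vehicle values of 2456, 3287 and 2634. With filter 26 it had 1799, 1884 and 2376 CPM in series 37 and 2923 in series 35. col11a1a showed the same order. With filter 38 it had 359, 366 and 327 CPM in series 37 and 727 in series 35, and with filter 26 it had 339, 348 and 415 against 600. The vehicle pools of series 37 had 842, 778 and 728 CPM of col11a1a and those of series 35 had 713, 728 and 636.

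In the fit with group and series crossed, which was chosen after the data were seen, filter 26 gave 20 lower collagen genes in series 37 (27.1% of all genes called in either direction) and 0 in series 35 (0.128% called). Filter 38 gave 20 lower genes in series 37 (24.2% called) and 0 in series 35 (2.41% called). The medians were -0.63 and -0.68 in series 37, against -0.0041 and 0.14 in series 35. The difference between the series was itself tested. It was called in 11 genes for filter 26 (1.33% of all genes lower by this test) and in 19 for filter 38 (7.95%), all more negative in series 37. For col11a1a the difference was -0.85 ± 0.14 with filter 26 and -1.20 ± 0.14 with filter 38 (edgeR adjusted p = 0.00186 and 1.66e-05). For col5a3b it was -1.77 ± 0.22 and -1.66 ± 0.22 (edgeR adjusted p = 0.000143 and 4.73e-05). Each rests on 1 pool in series 35, which was assumed to vary like the others. Whether the pools of series 35 and 37 received the same dose is not given in the labels, and dose, series and sequencing round cannot be told apart.

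Filters 28 and 36 gave no such difference at the threshold. In series 37 they gave 0 called genes, with medians of -0.20 and -0.15, where 0.0839 and 0.0574% of all genes were called. The change was negative in 24 and 20 of the 26 genes, and 7 and 6 had an unadjusted p under 0.05. For the crossed fit, the share of all genes under that unadjusted threshold was not computed. In series 35 filter 28 gave 0 and filter 36 gave 1, col9a1b (-1.20 ± 0.25, edgeR adjusted p = 0.0359), where 0.0309 and 0.569% were called. The difference between the series was called in 0 genes for either filter by edgeR (0.00883 and 0.0397% of all genes). Within series 37, filter 26 was lower than filter 28 in 19 genes (9.12% of all genes lower, median -0.48) and filter 38 lower than filter 36 in 16 (6.08% lower, median -0.53). Between filters 26 and 38 in that series edgeR called 0 collagen genes (0.335% of all genes), with 2 at an unadjusted p under 0.05. The vehicle pools of series 37 were themselves higher than those of series 35 in 6 genes, among them col5a3b (0.83) and col9a1b (0.76), where 5% of all genes were higher.

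**Figure D4:**
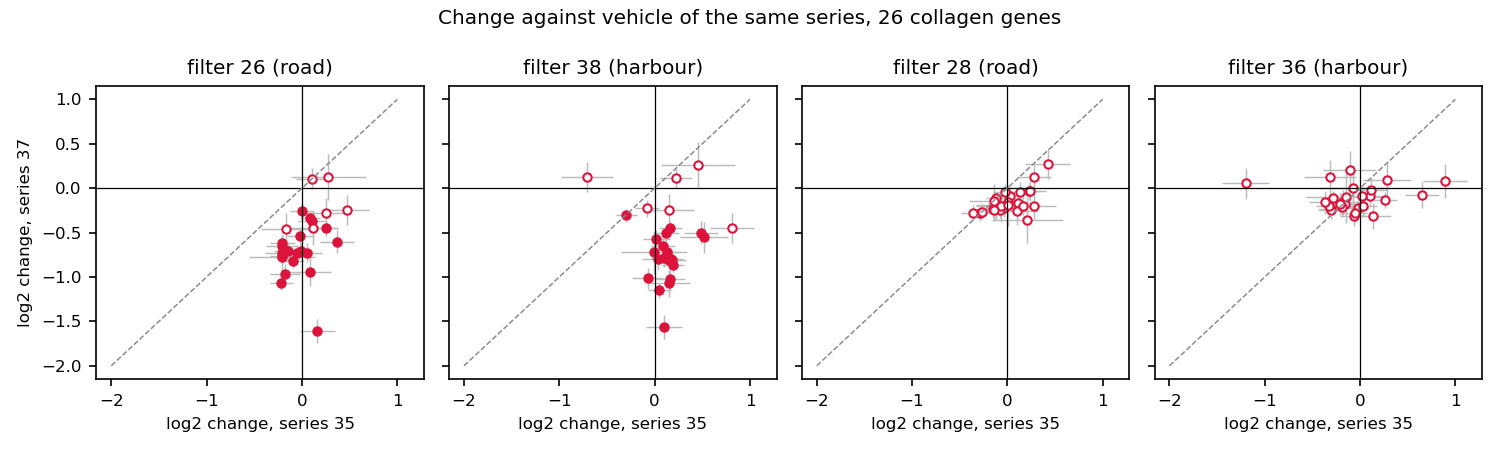
Log2 change of each collagen gene against the vehicle pools of its own series, series 35 on the x axis and series 37 on the y axis, in 1 panel each for filters 26, 38, 28 and 36, with grey bars for the SE, a dashed line of equal change and filled points where the adjusted p in series 37 was under 0.05. In the panels of filters 26 and 38, 20 genes are filled and most points lie below 0 in series 37. In series 35 the points scatter around 0 for filter 26 (14 of 26 negative) and lie mostly above 0 for filter 38 (5 of 26 negative). In the panels of filters 28 and 36 no point is filled.

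The airport changes were also set against those of filters 26 and 38 in series 37. The airport change in series 35 exceeded that of filter 26 in series 37 in 2 genes, col28a1a (-0.94 ± 0.17) and col9a1b (-1.06 ± 0.23), with edgeR adjusted p of 0.02 and 0.0487, where 0.221% of all genes were lower. The median difference over the 26 genes was -0.34. Against filter 38 edgeR called 0 genes (0.945% of all genes called), with 13 at an unadjusted p under 0.05 and a median difference of -0.31. As each change was taken against the vehicle pools of its own series, the doses of the pools set side by side may differ.

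Several pairs of duplicate genes did not change by the same amount in airport embryos. The log2 ratio of the counts of col28a1a to those of col28a1b was 2.25 lower in the 3 airport pools than in the 6 vehicle pools. The ratio of col5a3b to col5a3a was 1.73 lower, that of col9a1b to col9a1a 1.20 lower and that of col11a1a to col11a1b 0.75 lower. The ratio of col9a3 to col9a2, which are different type IX chains and not duplicates, was 0.50 lower. That of col1a1a to col1a1b was 0.10 lower. For each of these 6 ratios the airport pools lay beyond all vehicle pools, with a two-sided exact permutation p of 0.0238, the smallest possible, and an adjusted value of 0.0357 over the 9 ratios computed. This test ignores the series, although vehicle ratios differed by series in 2 of these 6 ratios. For col5a3b to col5a3a they were 4.07 to 5.02 in series 35 and 5.51 to 5.75 in series 37. For col9a1b to col9a1a they were -0.59 to -0.41 and 0.05 to 0.19. For col1a1a to col1a1b the airport and mock filter pools overlapped. The ratio of col2a1a to col2a1b differed by 0.10 (exact permutation p = 0.238), that of the type I chains by 0.09 (p = 0.0952 by the same exact test) and that of col10a1a to col2a1a by 0.40 (exact permutation p = 0.119). For col2a1a to col2a1b, vehicle ratios also differed by series, at 1.67 to 1.94 in series 35 and 1.62 to 1.65 in series 37. Its airport difference was 0.02 against series 35 alone. Against the 3 vehicle pools of series 35 alone, for which the exact test cannot go below 0.1, the differences were -2.48, -1.20, -0.91 and -0.75 for the col28a1, col5a3, col9a1 and col11a1 pairs. With filters 26 and 38 in series 37, the mean log2 ratio of col11a1a to col11a1b was 0.91 and 0.95. The vehicle pools of that series had 1.60. For the col28a1 pair these 3 means were 2.40, 1.92 and 3.21, and for the col5a3 pair 4.52, 4.33 and 5.63. For the col9a1 pair they were -0.09, -0.17 and 0.10. These differences in series 37 were not tested. How the reads of duplicates were assigned is not given in the sources used here.

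**Figure D5:**
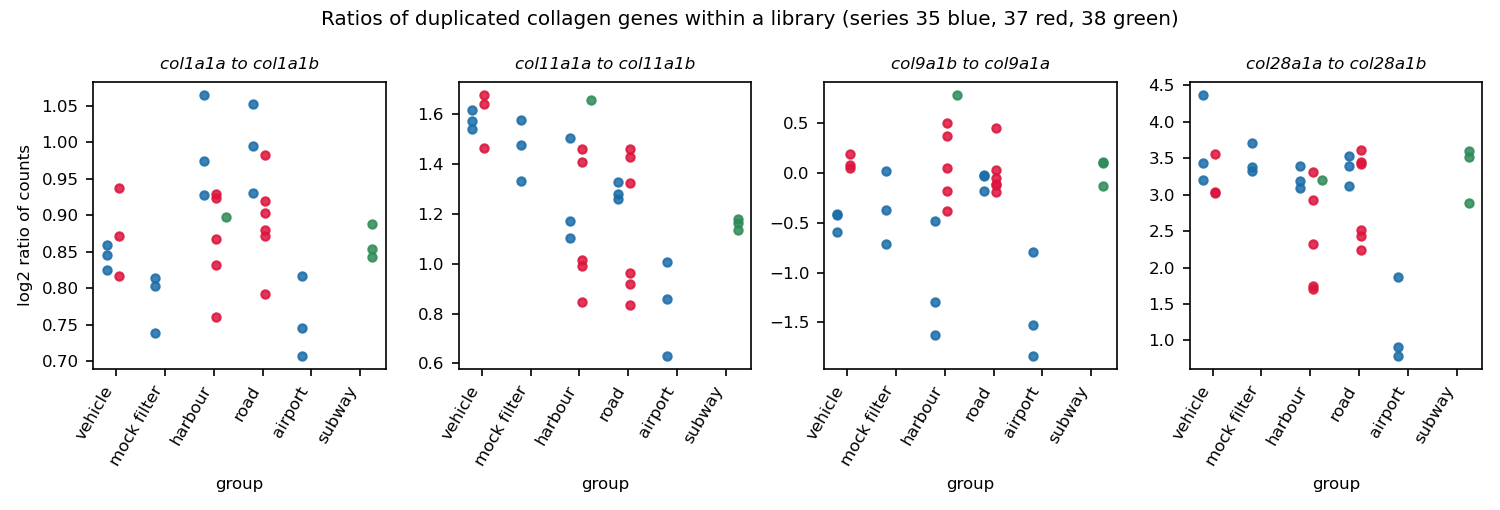
Log2 ratio of the counts of duplicate genes per library, by group: col1a1a to col1a1b, col11a1a to col11a1b, col9a1b to col9a1a and col28a1a to col28a1b. The airport libraries lie below the vehicle libraries in each panel, by 0.10 on average for the type I pair and by 2.25 for the collagen XXVIII pair.

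The lists of genes that make and mature collagen differed in direction in airport embryos. Those of folding and of cleavage and crosslinking had more lower than higher genes, and that of export had more higher genes. Of 19 tested genes of collagen folding and modification, 8 were lower and 3 higher (median -0.28). Lower were fkbp10b (-1.48 ± 0.26), a prolyl isomerase that acts on procollagen in the endoplasmic reticulum (ER), and colgalt2a (-1.81 ± 0.34), a galactosyltransferase of collagen. Higher were the prolyl hydroxylase genes p4ha1a (0.68 ± 0.14) and p4ha2 (0.72 ± 0.17). Of 19 genes of collagen export from the ER, 2 were lower and 11 higher (median 0.27), among them mia2 (0.47 ± 0.06), sec23a (0.55 ± 0.08) and sec24d (0.64 ± 0.09), the last needed for craniofacial cartilage in zebrafish. Of 15 genes of procollagen cleavage and crosslinking, 7 were lower and 4 higher (median -0.40), with loxl3b at -1.03 ± 0.16, loxl3a at -1.87 ± 0.36, bmp1b at -0.99 ± 0.22 and pcolcea at -0.65 ± 0.16, which act in crosslinking and in removal of the propeptides. The background for these counts is that of the airport comparison above.

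Other genes of cartilage and bone fell in part. Of 23 tested genes of the cartilage matrix other than collagens, 13 were lower and 2 higher (median -0.52). mia fell by 1.27 ± 0.14, the matrilin gene matn1 by 1.17 ± 0.17, otos by 1.19 ± 0.17 and the chondromodulin gene cnmd by 1.25 ± 0.20. Their summed level was 699 to 1018 CPM in airport pools and 1150 to 1332 in vehicle pools, without overlap. Of 18 bone matrix and mineralisation genes, 7 were lower and 1 higher (median -0.37): sparc, which binds collagen, fell by 0.56 ± 0.11, enpp1 by 0.47 ± 0.09 and phex by 0.36 ± 0.09, and scpp5 rose by 1.78 ± 0.24. Their summed level was 605 to 742 CPM in airport pools and 794 to 945 in vehicle pools. Of 24 skeletal transcription factors, 5 were lower and 2 higher (median -0.16), where 17.2% of all genes tested were lower and 17.4% higher. The lower count was near that share and the higher count below it. sp7, the osteoblast factor, fell by 1.03 ± 0.22, and the chondrocyte factors sox6 and sox5 by 0.56 ± 0.12 and 0.34 ± 0.11. prrx1a rose by 0.31 ± 0.09. The chondrocyte regulator sox9a, named here after its value was seen, had a change of 0.13 ± 0.12 (edgeR adjusted p = 0.449), with sox9b at 0.14 ± 0.16 (adjusted p = 0.525).

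Of 14 collagen-cleaving proteases and inhibitors of such proteases, 9 were higher and 1 lower in airport embryos (median 0.46). Among all genes tested, 17.4% were higher and 17.2% lower. The higher genes include inhibitors as well as proteases. mmp13a, a collagenase, rose by 4.92 ± 1.01, mmp14b, a membrane-bound matrix metalloproteinase, by 0.91 ± 0.15 and the cathepsin gene ctsla by 1.04 ± 0.20, while fap fell by 0.89 ± 0.18. The inhibitor genes timp2a, timp2b and timp4.3, named after their values were seen, rose by 0.42 ± 0.13, 2.83 ± 0.77 and 0.74 ± 0.20. Over the 14 genes the summed level was 1437 to 2507 CPM in airport pools and 884 to 1094 in vehicle pools. With filter 26, 9 of the 14 were higher and 0 lower, and with filter 38, 4 were higher and 0 lower, where edgeR called 17 and 10.4% of all genes in these comparisons. Of the 23 cartilage matrix genes, 8 were lower and 4 higher with filter 26, and 5 lower and 2 higher with filter 38. Of 10 collagen receptors, 2 were lower and 3 higher in airport embryos, and the lower count was near the share of all genes. The integrin genes itgb1b, itgb1b.2 and itgb1a changed by 0.76 ± 0.15, -0.85 ± 0.18 and -0.32 ± 0.08. The change of ddr2l, of the discoidin domain receptors, was 0.91 ± 0.21.

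Genes of other matrix tissues went in both directions in airport embryos, where 17.2% of all genes were lower and 17.4% higher. Of 13 tendon and muscle junction genes, 5 were lower and 3 higher, with tgfbi at -1.25 ± 0.18, postnb at -1.11 ± 0.17, tnmd at -0.55 ± 0.15 and ccn2a at 0.83 ± 0.19. Of 13 notochord genes, 5 were lower and 2 higher, with epyc at -1.36 ± 0.22, cavin4a at -1.53 ± 0.23, cav3 at -0.75 ± 0.15 and cmn at -1.20 ± 0.25. The higher genes, named after their values were seen, were cav1 (0.55 ± 0.12) and cavin1b (1.04 ± 0.23). Of 13 genes of the fin fold, 4 were lower and 3 higher, among them the actinodin genes and1 (-1.69 ± 0.30) and and3 (-1.64 ± 0.39), which build the fin fibres, fbn2b (-1.23 ± 0.25) and fras1 (-0.48 ± 0.11). The higher genes, named in the same way, were bmp1a (0.40 ± 0.11), fbln1 (0.64 ± 0.19) and msx2b (0.73 ± 0.24). Of 15 basement membrane genes other than collagens, 3 were lower and 4 higher, with tinagl1 at 1.84 ± 0.36 and the laminin genes lamc1 at 0.46 ± 0.10 and lamb1a at -0.31 ± 0.08.

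Some cell type markers were also called in airport embryos, against 17.2% of all genes lower and 17.4% higher. Of 15 fibroblast markers, 5 were lower and 2 higher, with lum at -1.60 ± 0.20, fbln5 at -0.83 ± 0.17, foxd1 at -0.54 ± 0.13 and zic1 at -0.33 ± 0.09. The higher markers were fbln1 (0.64 ± 0.19) and prrx1a (0.31 ± 0.09), and pdgfra (-0.16 ± 0.07) and pdgfrb (-0.03 ± 0.08) did not pass, all but prrx1a named after their values were seen. The summed level of the fibroblast markers was 367 to 433 CPM in airport pools and 458 to 516 in vehicle pools. Of 14 epidermis markers, 5 were lower and 8 higher. krt5, krt15 and krt4 fell by 2.24 ± 0.36, 0.96 ± 0.15 and 1.10 ± 0.18, and lamb3 rose by 4.16 ± 0.71. Named after their values were seen, tp63 had 61.4 to 64.4 CPM in airport pools and 37.2 to 43.5 in vehicle pools. For epcam these were 513 to 609 and 177 to 244, and for cdh1 250 to 318 and 129 to 212. The keratin gene krtt1c19e, named in the same way, went the other way, at 130 to 216 and 729 to 1100. The summed level of the epidermis markers was 5834 to 6228 CPM in airport pools and 10670 to 13380 in vehicle pools. Its largest parts were krt4 (3190 to 3670 and 6280 to 7710) and krt5 (523 to 945 and 2510 to 3510). Of 10 red blood cell markers, 7 were lower and 0 higher, with hbae3 at -0.90 ± 0.23, hbbe1.2 at -0.89 ± 0.25, hbbe2 at -0.75 ± 0.22 and rhag at -0.39 ± 0.10, and the summed levels overlapped (464 to 688 CPM in airport pools, 552 to 854 in vehicle pools). Of 13 neutrophil and macrophage markers, 3 were higher and 0 lower: mmp13a, il1b (6.37 ± 1.47) and mmp9 (4.93 ± 1.15). These 3 varied between airport pools, at 9.05 to 128 CPM for mmp13a, 62.1 to 632 for mmp9 and 2.99 to 169 for il1b. Vehicle pools had 1.69 to 3.73, 4.97 to 27.9 and 0.465 to 4.03 CPM, so that il1b overlapped. The summed level of all the markers was 249 to 1107 CPM in airport pools and 106 to 323 in vehicle pools. The marker mpeg1.1 (0.77 ± 0.31, edgeR adjusted p = 0.0571) did not pass. The neutrophil genes mpx (29.7 to 49.3 CPM in airport pools, 12.7 to 53.0 in vehicle pools) and lyz (24.1 to 54.1 and 19.7 to 53.5) overlapped between these groups. The part of these cell types in the collagen result was not tested.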

How the data were processed

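Poly(A) RNA of pools of 10 embryos was sequenced with a stranded kit, per the labels' protocols. The authors deposited raw counts per gene for 33 libraries. CASAVA, BWA and GRCz11 stand in the submitters' processing notes. The counter, how it used strand and the annotation were not given in the sources used here. The deposited quality table gives the percent of uniquely mapped reads. All 33 columns were matched to libraries by name. Symbols came from a gene table (17766 genes) and a gene name table (5860 genes), and 1806 genes had none.

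Counts were filtered with filterByExpr, scaled by TMM and tested with edgeR 4.0.16 (quasi-likelihood, limma 3.58.1, R 4.3.3) in 1 fit of the 6 groups with the library series (the start of the library name) as covariate (22124 genes) and 1 fit of the filters (22653 genes). A fit with group and series crossed was added after the data were seen. p-values were adjusted by Benjamini-Hochberg over all genes tested within each comparison, and not across comparisons. An adjusted p under 0.05 counts as passed. CPM by library carry no prior count, and log2 CPM in the heat map use a prior count of 2. The scripts were tested on simulated data. Shares of counts and ratios were compared by exact two-sided permutation tests. Depth was 18448718 to 51854033 counts, and its part in the precision of the values was not tested.

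The members and the gene lists were chosen with earlier results of these data known. Values by library are given for the 10 members with the largest airport change at a mean log2 CPM of at least 1, the 8 members with the highest mean CPM and the textbook collagens of bone and cartilage, and for other lists up to 4 genes with the smallest p in the airport comparison. The values of 1 such gene are not reported here. Alternatives were DESeq2 1.42.0, its size factors, library totals, no filter on low counts, other covariates, other controls, single series and each pool left out. Pools of filters 36 and 38 with the same number deviated together from their filter means (r = 0.387, 0.245, 0.133 and 0.156 over genes, numbers 1 to 4), and were treated as paired by number in an alternative fit. Number 1 is the series 35 pool of both filters, so that the pairing in part restates the series, and number 4 joins a series 38 pool with a series 37 pool. No sequence is shown, since no sequence table was used here.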

Additional observations from a re-analysis of the deposited data

Results flagged for a closer look

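In road 8, a series 37 pool of filter 28, col9a1b had 194.9 CPM, apart from the other 8 of the 9 road pools, the nearest of which had 135.8. The road pools mix 3 filters and both sequencing rounds. It was the only such pool in 78 sets checked, the vehicle, harbour and road pools for each of the 26 genes, where chance alone marks about 1 group in 20.

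The airport change was larger than the mean of harbour and road in 23 collagen genes that were lower, by a test of the difference itself in edgeR, and filter 26 was lower than filter 28 in 3. The 5 airport differences with the smallest p were -1.35 for col28a1a, -1.07 for col1a2, -1.503 for col8a1a, -1.09 for col1a1a and -1.31 for col9a3. Between filters 26 and 28 they were -0.58 for col11a1a, -0.54 for col28a1a and -0.90 for col5a3b.

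Between series 37 and series 35, the change against vehicle was lower in 11 collagen genes for filter 26 and in 19 for filter 38, tested in the fit with group and series crossed.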

How the results depend on the processing

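The airport count of 26 was 23 to 26 with each pool left out, and the count against the mean of harbour and road 21 to 24. The first was 21 with only the groups compared, 22 in series 35 alone and 20 in series 35 without vehicle 3. Other counts moved by more. Harbour (0) gave 1 with DESeq2, DESeq2's size factors, no filter on low counts or library totals (added after the data were seen), 15 without filter 36, and 0 to 2 with a pool left out. Road (0) gave 1 with DESeq2 and 10 without filter 28. Subway (0) gave 1 with DESeq2's size factors or library totals, 2 with DESeq2 and 0 to 2 with a pool left out. With a pool left out, filter 26 gave 8 to 18, filter 38 2 to 19, filter 26 against 28 (3) 0 to 13 and filter 36 against 38 (0) 0 to 17. Filter 26 against 28 gave 10 with library totals or DESeq2 and 19 in series 37 alone, and filter 36 against 38 gave 1 and 18 with DESeq2 and in series 37 alone. The causes were not tested. No sign of a called gene reversed in any alternative run. A fit of subway and vehicle alone could not be made, as series 38 holds no vehicle pool.

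With the replicate number as a block, filter 26 against 28 gave 0 called collagens, and 9 in the same libraries without the block; same-number correlations were 0.203, 0.029, 0.112 and 0.026, so that the numbers were not taken to pair the pools, although number 1 is the series 35 pool of both filters. Filter 36 against 38 and mock filter against vehicle (correlations 0.222, -0.18 and 0.284) gave 0 with the block as without it.

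The lowest counts were those of col28a1b, near 2 CPM. What limits the other values was not tested.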

Other observations

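The collagen genes outside the rule, which carry capital symbols or symbols from the table of gene names, moved the same way in part. Of 26 such genes, 16 were lower and 1 higher (col23a1b, 0.38 ± 0.13) in airport embryos against vehicle in edgeR. Of all genes tested, 17.2% were lower and 17.4% higher. The 26 genes had a median log2 change of -0.57, and 9 of them did not pass. The largest changes were in col28a2b (-2.06 ± 0.43), col14a1b (-1.91 ± 0.32) and col16a1 (-1.23 ± 0.21). The collagen VI genes, which form beaded filaments around cells of muscle and connective tissue, fell by less: col6a1 by 0.76 ± 0.14, COL6A2 by 0.75 ± 0.17 and COL6A3 by 0.69 ± 0.13. COL5A1, a partner of type I fibrils, fell by 0.30 ± 0.09. A second gene carries the name col19a1 in that table (ENSDARG00000076163) and had a change of -0.07 ± 0.11 (edgeR adjusted p = 0.659). Of the 5 genes of collagens VII and XVII, which anchor the epidermis, 4 were lower, among them col7a1 (-2.69) and col17a1b (-0.59), while col17a1a (-0.14) did not pass.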
